A study of Mus musculus with 14 samples.

Results

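The genes Trerf1, Adgrl3, Samd5, Sema6d, Sorcs1, Dpp6, Smoc2, Penk and Cntn1 were followed through the cells of 7 lymphoid nodules. These 9 of the 32285 genes counted were selected on higher levels in T cells of the TCR nodules, or in the cells of 1 expanded T clone, in the same libraries. Their levels in those contrasts are therefore given as a description, without a test. The question was which of them were restricted to the clone and which were also present in T cells with other receptors.

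White nodules came from sick Eif3e fl/fl Cγ1Cre/+ mice (cKO) on a C57BL/6J background. In them Cre, made from the Ighg1 locus, deletes Eif3e, a subunit gene of translation initiation factor eIF3, in activated B cells. Every nodule gave a single-cell RNA library and a second library enriched for rearranged antigen receptors, called V(D)J. The B cell receptor (BCR) was profiled in 5 nodules and the T cell receptor (TCR) in 2. The BCR nodules were a liver nodule of mouse 27 (12 mo of age), a lung nodule of mouse 29 (12 mo), a spleen nodule of mouse 31 (13 mo), a thymus nodule of mouse 33 (16 mo) and lung with thymus tissue of mouse 34 (9 mo). The TCR nodules were from the liver of mouse 30 (14 mo) and the spleen of mouse 32 (12 mo). Mice 29, 31, 32 and 34 also carried a Rosa26-YFP reporter allele. The nodule of mouse 27 had been passed through an immunodeficient recipient as a transplant, and mouse 34 was a bone marrow chimera of cKO and B cell-deficient JHT cells, so that its T cells may stem from the JHT donor. Every nodule arose from mice or transferred cells with the deletion alleles, a nodule without them was not analysed here, and each mouse gave 1 nodule, so mouse, site and nodule cannot be told apart.

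The RNA libraries held 77442 deposited cells, of which 75503 passed the filters, with 19254544 to 122550206 UMIs (unique molecular identifiers, 1 per counted transcript) per library. Between 78 and 278 cell barcodes were shared by each pair of libraries, at most 2.27% of the smaller library. Cells were named T-like from Cd3d, Cd3e, Cd3g, Trac, Trbc1 and Trbc2, which summed to 914 to 2456 UMIs per 1000000 UMIs of the same cells (CPM, counts per 1000000) in the T-like cells of the 7 nodules. T-like cells numbered 575, 5128, 879, 3505 and 902 in mice 27, 29, 31, 33 and 34, 9312 in mouse 30 and 7916 in mouse 32. The T-like cells of mouse 29 carried the fewest T marker UMIs, and its fibroblast, endothelial and neutrophil marker sums there were 35.4, 90.7 and 367 CPM. The part of these markers in the levels of mouse 29 was not tested.

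T cells recognize antigen through a TCR whose β and α chains are rearranged once per lineage, so that cells with the same chains belong to 1 clone. The genes studied are known mostly from other tissues. Adgrl3 encodes the adhesion receptor latrophilin 3, Sema6d a transmembrane semaphorin, and Cntn1 contactin 1, a cell-surface protein of neurons. Sorcs1 encodes a sorting receptor of the VPS10 family, and Dpp6 a subunit of Kv4 potassium channels without peptidase activity. Smoc2 is a secreted calcium-binding matrix protein, Penk the precursor of the enkephalin opioid peptides, Trerf1 a zinc finger transcriptional regulator that belongs to the MiDAC histone deacetylase complex, and Samd5 a protein with a SAM domain. Penk is also known from regulatory and activated T cells.

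The clones against which the genes were read are defined by their receptor sequences. The CDR3 junctions of their β (TRB) and α (TRA) chains, as assembled in the deposited contigs, are shown because every comparison of clone with non-clonal cells rests on them. The clone of mouse 30 used TRBV1 with TRBJ2-1 and TRAV9-2 with TRAJ21, and that of mouse 32 used TRBV26 with TRBJ2-5 and TRAV6N-7 with TRAJ30.
Mouse 30 TRB: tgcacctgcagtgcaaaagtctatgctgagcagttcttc
Mouse 30 TRA: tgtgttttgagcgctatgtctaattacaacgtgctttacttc
Mouse 32 TRB: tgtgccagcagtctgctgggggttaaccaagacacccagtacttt
Mouse 32 TRA: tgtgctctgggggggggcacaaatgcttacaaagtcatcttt
Cells with either chain formed the clone, 2107 cells in mouse 30 (2090 of them T-like) and 4868 in mouse 32 (4547 T-like). Another receptor was called in 396 and 528 cells, 394 and 503 of them T-like, and 6828 and 2866 T-like cells had no TCR call. Both clones carried Cd4 and nearly no Cd8a, with 179 CPM of Cd4 and 0.0 CPM of Cd8a in mouse 30 and 168 CPM and 0.722 CPM in mouse 32. In the other TCR-called T-like cells, 6.09% of cells in mouse 30 and 29.4% in mouse 32 held Cd8 UMIs without Cd4, and NK cell markers summed to 142 and 1970 CPM, against 8.85 and 27.7 CPM in the clones. The non-clonal cells of mouse 32 thus differed from the clone in cell type as well as in receptor, and CD4 cells were also compared on their own. The clones include cells that were not T-like. Over all their cells, neutrophil markers summed to 944 CPM in mouse 30 and 2305 CPM in mouse 32. The T-like clone cells held 203 and 224 CPM of them, against 181 and 247 CPM in the other TCR-called T-like cells. With T-like cells on both sides the ratios of clone to other cells stayed within their counting intervals, except that of Penk in mouse 32, which was 1.96. Doublets were not searched for.

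**Figure D1:**
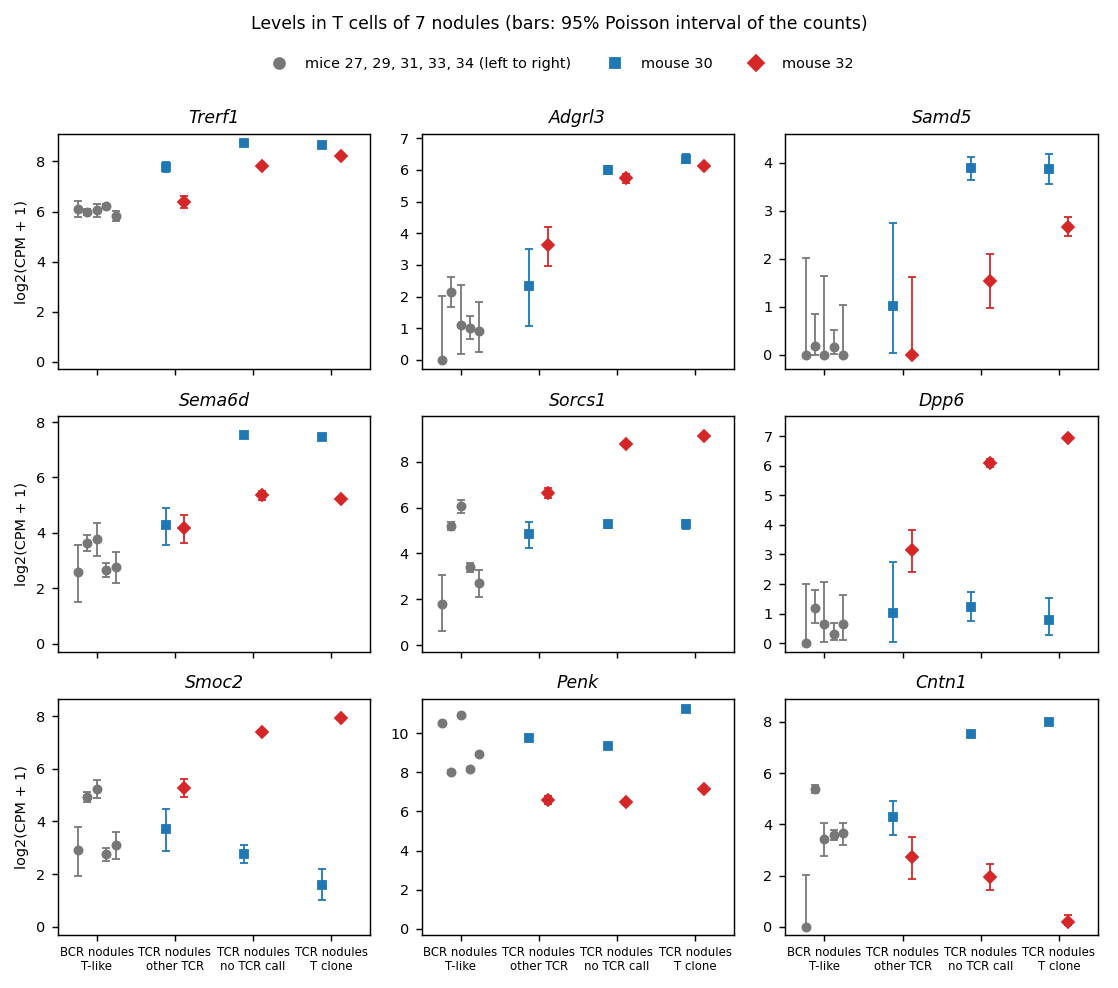
Levels of the 9 genes as log2(CPM + 1) in T-like cells of 5 BCR nodules, and in TCR-called cells with another receptor, T-like cells without a TCR call and clone cells of the 2 TCR nodules. Points are single nodules with the 95% Poisson interval of their counts. Adgrl3, Samd5 and Dpp6 lie near 0 in the BCR nodules, whereas Penk is high in all 7.

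Trerf1 was high in both clones and near one level in the T-like cells of the BCR nodules. These held 68.5, 62.4, 65.4, 73.2 and 55.2 CPM in mice 27, 29, 31, 33 and 34 (65.0 ± 6.75, SD, n = 5), whereas mouse 30 had 407 CPM and mouse 32 had 323 CPM. The groups did not overlap, which the choice of the gene fixes. The clones stood at 402 CPM (95% Poisson interval 385 to 419) in mouse 30 and 299 CPM (292 to 305) in mouse 32. Trerf1 was not confined to them. TCR-called cells with another receptor held 218 CPM in mouse 30, 54.3% of the clone, and 70.4 CPM in mouse 32, 23.5% of the clone. The latter is within the range of the BCR nodules, although the 503 T-like cells among them held 83.2 CPM, above that range. In mouse 30 the level is above all 5. Among CD4 cells alone the clone exceeded the others 1.64-fold (counting interval 1.32 to 2.06) in mouse 30 and 2.92-fold (2.06 to 4.31) in mouse 32. After each cell was thinned to 1000 UMIs, 31.1% of clone cells in mouse 30 and 21.9% in mouse 32 still held a Trerf1 UMI, against 18.6% and 8.6% of the other TCR-called T-like cells and 4.56% to 6.61% of T-like cells in the BCR nodules. Thinning kept the 2004 of 2107 and 4847 of 4868 clone cells, and the 376 of 394 and 500 of 503 others, that had 1000 UMIs or more. Before thinning the shares were 49.7% and 50.6% of clone cells and 33.5% and 18.9% of the others.

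Adgrl3 was high in both clones and low in T cells of the BCR nodules and, in mouse 30, in T cells with another receptor. The T-like cells of the BCR nodules held 0.0, 3.44, 1.16, 1.01 and 0.868 CPM (mice 27, 29, 31, 33 and 34), where 0 UMIs in mouse 27 allow up to 2.48 CPM. The clone of mouse 30 held 80.9 CPM and the clone of mouse 32 held 69.1 CPM, a narrow range. TCR-called cells with another receptor gave 4 UMIs (4.0 CPM) in mouse 30 and 24 UMIs (10.8 CPM) in mouse 32, so the clone was 20.2-fold (7.85 to 74.6) and 6.43-fold (4.31 to 10.1) higher. Limited to other cells without a single UMI of the Trbv gene of the clone, these became 1.13 CPM (1 UMI) and 8.15 CPM. The 75 CD4 T-like cells among the others of mouse 32 held 24.7 CPM (6 UMIs). Outside T cells, Adgrl3 was seen in fibroblast-like cells, with 98.8, 24.5 and 34.6 CPM in mice 29, 33 and 34, and reached 81.4 CPM in the endothelial-like cells of mouse 34. Fibroblast markers summed to 0.184 CPM and 10.3 CPM in the clones of mice 30 and 32.

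Samd5 was also found in both clones, from far fewer UMIs. The clones held 74 UMIs (13.7 CPM) in mouse 30 and 148 UMIs (5.34 CPM) in mouse 32. The 5 BCR nodules together gave 3 UMIs in T-like cells, 1 in mouse 29 and 2 in mouse 33. Other TCR-called cells gave 1 UMI in mouse 30 (1.0 CPM, ratio 13.6, interval 2.37 to 546) and none in mouse 32, where the clone was at least 3.97-fold higher than the 3 counts that a count of 0 allows. Samd5 was not confined to T cells. Endothelial-like cells held 13.0 CPM in mouse 29 (23 UMIs). Those of mice 33 and 34 gave only 3 and 2 UMIs (7.66 and 6.03 CPM). In mice 27 and 31 they gave 0 UMIs, which allow up to 18.5 and 11.9 CPM. In mouse 31 the 2636 unnamed cells, which had few UMIs and B cell markers, held 10.7 CPM (46 UMIs), above the clone of mouse 32. The B clone of mouse 31 held 3.09 CPM and its other B-like cells held 3.54 CPM (62 UMIs).

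Sema6d went from 4.95, 11.5, 12.7, 5.38 and 5.79 CPM in T-like cells of mice 27, 29, 31, 33 and 34 to 36.3 CPM in the mouse 32 clone and 174 CPM in the mouse 30 clone, without overlap. Its other TCR-called cells stood at 14.3 CPM (mouse 32) and 18.0 CPM (mouse 30), just above the highest BCR nodule. The clone was 9.68-fold (6.09 to 16.4) higher in mouse 30 and 2.53-fold (1.78 to 3.72) in mouse 32. Macrophage-like and endothelial-like cells also carried Sema6d, the latter at 21.1 to 111 CPM in the 5 BCR nodules.

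**Figure D2:**
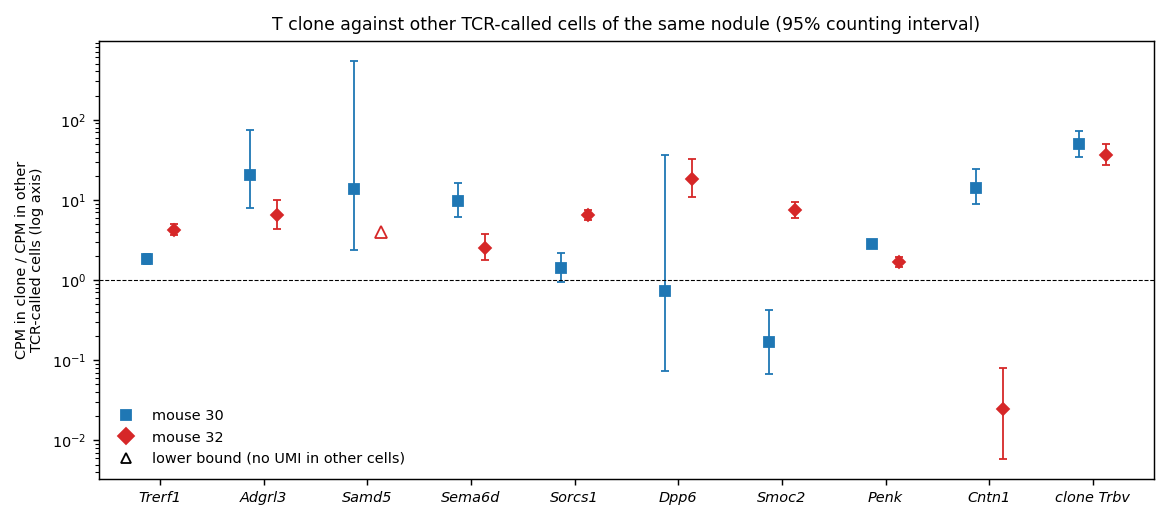
Ratio of CPM in the T clone to CPM in other TCR-called cells of the same nodule, with exact 95% counting intervals on a log axis. Clone Trbv is the Trbv gene of the clone, with other cells that use the same gene left out. Cntn1 and Smoc2 lie on opposite sides of 1 in the 2 mice, and the open triangle is a lower bound.

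Dpp6, Sorcs1 and Smoc2 were high in the clone of mouse 32 and not in that of mouse 30. Of these, Dpp6 had the lowest level in other T cells relative to the clone. The mouse 32 clone gave 3348 UMIs (121 CPM) and the mouse 30 clone 4 UMIs (0.738 CPM). BCR nodules held 0.0, 1.29, 0.579, 0.236 and 0.578 CPM in T-like cells of mice 27, 29, 31, 33 and 34. Other TCR-called cells of mouse 32 held 6.72 CPM (15 UMIs), 5.56% of the clone, and those of mouse 30 held 1 UMI. The Trbv26 transcript of the clone, which cells with another β chain should lack, was at 2.75% of its clone level in the same other cells, and Trbv1 in mouse 30 at 2.02%. The part of RNA shared between cell barcodes in the Dpp6 counts of other cells was not tested.

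Sorcs1 reached 552 CPM in the clone of mouse 32, where 78.8% of cells (median 3805 UMIs) held a UMI, against 7.04% of neutrophil-like cells (median 9145 UMIs) of the same nodule. In contrast to Dpp6 it was also found in T cells of other nodules, with 2.48, 36.0, 65.4, 9.58 and 5.50 CPM in mice 27, 29, 31, 33 and 34, and the mouse 30 clone had 37.8 CPM, inside that range. Other TCR-called cells of mouse 32 held 84.7 CPM (ratio 6.52, 5.65 to 7.56), and those of mouse 30 gave 27 UMIs against 205 in the clone (ratio 1.40, 0.934 to 2.18). In mouse 32 this level depended on how the clone was delimited. The authors' dominant clonotype number covers 60 cells that have neither family chain, and with these counted as clone the other cells held 29.9 CPM and the ratio became 18.5 (14.3 to 24.2).

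Smoc2 showed the same arrangement. The mouse 32 clone held 242 CPM and the mouse 30 clone 2.03 CPM (11 UMIs). In mouse 30 the other TCR-called cells held 12.0 CPM (12 UMIs) and the clone was thus lower (ratio 0.169, 0.0676 to 0.418). T-like cells held 6.60, 29.4, 37.1, 5.73 and 7.52 CPM in mice 27, 29, 31, 33 and 34. Fibroblast-like cells held 124, 129 and 108 CPM in mice 29, 33 and 34. Across 43 sums of mouse and cell class with at least 50 cells, Smoc2 and Sorcs1 had the highest correlation of any pair of members (Pearson's r of log2(CPM + 1) = 0.83). These sums share mice and libraries and include the T cell sums on which both genes were chosen. The value is therefore a description and no support for a link between the 2 genes.

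Cntn1 was the counterpart in mouse 30. Its clone held 256 CPM (1390 UMIs), and 34.6% of its cells (median 1992 UMIs) had a UMI, against 4.16% of neutrophil-like cells (median 1674 UMIs), whereas the clone of mouse 32 held 4 UMIs in 27708297 (0.144 CPM). T-like cells of the BCR nodules held 0.0, 40.5, 9.84, 11.1 and 11.6 CPM in mice 27, 29, 31, 33 and 34. Other TCR-called cells had 18.0 CPM in mouse 30 (ratio 14.2, 8.98 to 24.1) and 5.83 CPM in mouse 32, where the clone was lower than its neighbors (ratio 0.0248, 0.00589 to 0.0802). UMIs of Cntn1 were thus found at a low level in non-clonal T cells of 6 of the 7 nodules, with mouse 27 at 0 UMIs. In mouse 30 this level was not told apart from that in neutrophil-like cells, as given below.

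Neutrophil-like cells without a chain of the clone, which should lack T cell transcripts, gave the background in the TCR nodules. Of the 793 such cells in mouse 30, 4.16% held a Cntn1 UMI, 3.41% a Sema6d UMI and 1.64% an Adgrl3 UMI, against 4.32%, 3.81% and 1.02% of the other TCR-called T-like cells (median 1938.5 UMIs). The levels there were 16.4 and 18.3 CPM of Cntn1 and 12.5 and 18.3 CPM of Sema6d, and the counting intervals of the 2 groups overlap for all 3 genes, so that a level above this background was not detectable outside the clone of mouse 30. The background is itself not free of T cell RNA, since all neutrophil-like cells of mouse 30 held 175 CPM of T markers, and those without a T marker UMI held 10.4 CPM of Cntn1 and 3.06 CPM of Adgrl3. Penk and Trerf1 were above it, in 39.6% against 11.1% of cells and in 33.5% against 9.84%. Trerf1 is not confined to T cells, as macrophage-like cells of the BCR nodules held 18.3 to 44.7 CPM. The part of T cell RNA in its level in neutrophil-like cells was not tested. Of the 1150 such cells in mouse 32, 7.04% held a Sorcs1 UMI, against 13.3% of the other TCR-called T-like cells (median 3040 UMIs), and 4.52% and 8.55% a Smoc2 UMI. Dpp6 was found in 3.39% and 2.19% and Trerf1 in 32.5% and 18.9%, an order that the levels per UMI do not follow (2.92 and 7.87 CPM of Dpp6, 44.9 and 83.2 CPM of Trerf1). In the same cells Adgrl3 was at 2.22 and 11.2 CPM, Sema6d at 1.52 and 16.9 CPM and Cntn1 at 0.190 and 5.62 CPM. The counting intervals of these levels do not overlap. By share of cells, Adgrl3 was found in 2.78% and 3.58% and Cntn1 in 0.261% and 1.59%, with intervals that overlap. Sema6d was found in 1.74% and 4.37%, without overlap. These shares are not matched in depth, since the neutrophil-like cells had a median of 9145 UMIs. Thinned as for Trerf1 above, the shares were 0.27% and 1.2% for Adgrl3, 0.0% and 0.2% for Cntn1 and 0.36% and 1.8% for Sema6d. Intervals of the thinned shares were not made. The overlap for Adgrl3 and Cntn1 therefore does not place them at the background. Of these 3 genes, Sema6d alone was above the background of mouse 32 by both measures before thinning. The other TCR-called cells there include those that carry only the authors' dominant clonotype number.

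Penk was not restricted to a clone or to the TCR nodules. T-like cells of mice 27, 29, 31, 33 and 34 held 1463, 263, 1974, 287 and 486 CPM, against 1291 CPM in mouse 30 and the lowest level of all 7, 158 CPM, in mouse 32. Its mouse 30 clone held 2411 CPM and the other TCR-called cells there 858 CPM, a ratio of 2.81 (2.62 to 3.01). This difference lay in the deepest cells. Among cells with 1000 UMIs or more but under 2000 the clone held 320 CPM (292 to 350) and the other TCR-called T-like cells 455 CPM (381 to 540), and among cells with 2000 or more but under 4000 UMIs 998 CPM (956 to 1042) and 1141 CPM (1038 to 1252). Of these 3 depth classes, the clone was higher only in that of 4000 UMIs or more, where its 250 cells stood at 5993 CPM against 964 CPM in 42 other cells. In cycling clone cells, with at least 2 UMIs over 10 cell cycle genes, Penk was at 3912 CPM, and in clone cells without such UMIs at 1708 CPM. The former had a median of 6282 UMIs and the latter of 1903 UMIs, so state and depth cannot be told apart.

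**Figure D3:**
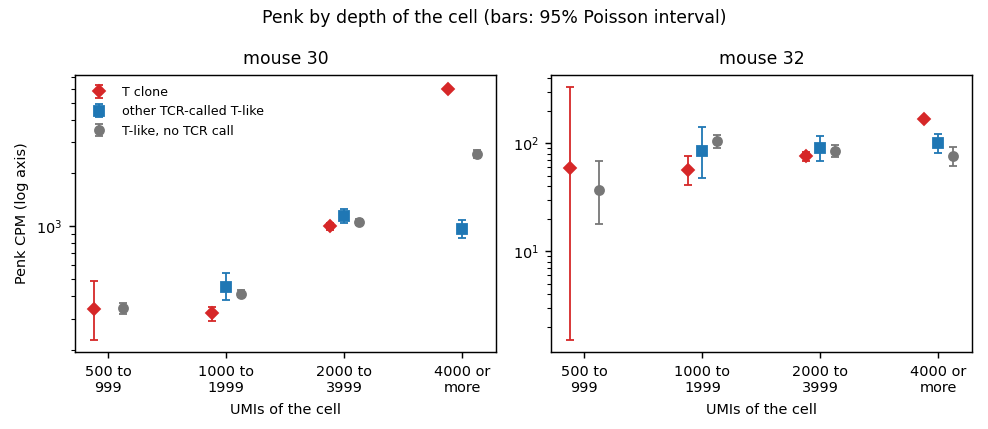
Penk CPM on a log axis by the number of UMIs of the cell, for clone cells, other TCR-called T-like cells and T-like cells without a TCR call of mice 30 and 32, with 95% Poisson intervals. In mouse 30 the clone is above the other TCR-called cells only in the deepest class.

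The T-like cells without a TCR call, which outnumbered the clone in mouse 30, had levels near it for several members. In mouse 30 they held 426 CPM of Trerf1, 62.6 of Adgrl3, 13.7 of Samd5, 183 of Sema6d and 182 of Cntn1, which is 71.0% (Cntn1) to 106% (Trerf1) of the clone, but 26.7% of its Penk level. In mouse 32 they held 446 CPM of Sorcs1, 67.3 of Dpp6 and 168 of Smoc2, or 80.8%, 55.7% and 69.4% of the clone, and 52.0 CPM of Adgrl3 (75.3%), but 1.89 CPM of Samd5 (35.4%). The Trbv gene of the clone was at 20.2% and 22.3% of its clone level in these cells. The cells lack a TCR call by definition, so this Trbv level is not independent of how they were chosen. They had a median of 1130 UMIs in mouse 30 and 1892 in mouse 32, against 1992 and 3805 in the clones. The clone levels are over all clone cells, whereas the uncalled cells are T-like only. In mouse 32, T markers summed to 1784 CPM over the 4868 clone cells and 2274 CPM over the 4547 T-like ones. Against the latter, the percentages of the members in mouse 32 would be lower. Whether the uncalled cells belong to the clone was not tested.

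Set in order of the level in other TCR-called cells as a percentage of the clone, the members of mouse 30 were Adgrl3 (4.94%), Cntn1 (7.02%), Samd5 (7.33%), Sema6d (10.3%), Penk (35.6%), Trerf1 (54.3%) and Sorcs1 (71.4%). In mouse 32 the order was Samd5 (0.0%, from 0 UMIs), Dpp6 (5.56%), Smoc2 (13.5%), Sorcs1 (15.3%), Adgrl3 (15.6%), Trerf1 (23.5%), Sema6d (39.5%) and Penk (59.5%). The clone's own Trbv transcript was lower than all of these but Samd5 of mouse 32, although the counting intervals of Adgrl3, Cntn1, Samd5 and Sema6d overlap in mouse 30, as do those of Smoc2, Sorcs1 and Adgrl3 in mouse 32. The intervals of Adgrl3 and Samd5 in mouse 30 and of Dpp6 in mouse 32 also overlap that of the Trbv transcript. The order in mouse 32 depends on how the clone was delimited, since by the authors' dominant clonotype number Sorcs1 would stand at 5.41% and Dpp6 at 2.90%. In both mice Trerf1 and Penk were present in T cells with other receptors.

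Levels were next compared over mice with edgeR's quasi-likelihood test on summed UMIs, with p values adjusted by the Benjamini-Hochberg method over all genes tested. For T-like cells of TCR against BCR nodules, the contrast that chose the members, 3 of 13444 genes (0.0223%) passed an adjusted p of 0.05. For clone against other TCR-called cells, which also chose them, 4 of 11857 (0.0337%) passed. Nothing is read from the members in either. The comparison of non-clonal T-like cells of the TCR nodules with all T-like cells of the BCR nodules shares cells with both contrasts and is not independent of the choice. There 0 of 10339 genes (0.0%) passed, 299 (2.89%) had an unadjusted p under 0.05, and DESeq2 called 4. Of the members, 6 were tested. Trerf1 was higher in non-clonal cells of the TCR nodules by 1.17 ± 0.34 (SE) on the log2 scale and Sema6d by 1.11 ± 0.44, both with an edgeR adjusted p of 0.99. Sorcs1 had 1.48 ± 0.99, Smoc2 0.59 ± 0.80, Cntn1 -0.45 ± 1.10 and Penk -0.93 ± 1.02, each with the same edgeR adjusted p of 0.99. Adgrl3, Samd5 and Dpp6 were too low to be tested.

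T cell subsets were then set apart by Foxp3, Cd4 and Cd8 UMIs, a reading added after the data had been seen. In the BCR nodules, Trerf1 was lower in CD8 than in CD4 cells of all 5 mice (9.67 against 95.1, 55.9 against 81.9, 38.4 against 58.7, 55.8 against 102 and 39.2 against 75.0 CPM in mice 27, 29, 31, 33 and 34). The counting intervals of CD8 and CD4 cells overlap in mice 29 and 31, so no order can be read there. In mouse 27 the CD8 level rests on 3 UMIs, the floor. The difference of Trerf1 over the 5 mice, -0.90 ± 0.23 (log2, mouse as a block), did not pass in edgeR (adjusted p = 0.0779, with 1.81% of 6857 genes called). Penk in cells with a Foxp3 UMI, a marker of regulatory T cells, was 560 against 353 CPM in mouse 29, 4716 against 2423 in mouse 31 and 800 against 613 in mouse 34, higher than in other CD4 cells in 3 of 3 mice (log2 difference 0.63 ± 0.16, edgeR adjusted p = 0.0396, 1.03% of 4265 genes called). That call was lost in 6 of 8 alternatives. Sorcs1 was also higher in Foxp3 cells of mice 31 (143 against 73.4 CPM) and 34 (50.4 against 2.73 CPM) but not of mouse 29 (33.9 against 39.1 CPM), with an edgeR adjusted p of 0.458.

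Smoc2 was low in CD8 cells, at 0.0, 3.39, 0.0, 1.66 and 0.585 CPM in CD8 cells of mice 27, 29, 31, 33 and 34, below the CD4 cells of the same mouse in 4 of 5. In mouse 27 the 0 UMIs allow up to 9.67 CPM, above the 6.34 CPM of its CD4 cells, so no order can be read. Sorcs1 was lower in CD8 cells of mouse 29 (1.70 against 39.1 CPM) and mouse 31 (0.0 against 73.4 CPM), whereas its counting intervals in CD8 and CD4 cells overlapped in mice 27, 33 and 34. In the CD4 cells outside the clone of mouse 32, Sorcs1 was at 231 CPM (60 UMIs in 77 cells) and Smoc2 at 108 CPM, and the clone was then 2.58-fold (2.00 to 3.38) and 2.43-fold (1.68 to 3.66) higher. For Dpp6 the ratio among CD4 cells was 5.50 (2.67 to 13.7) and for Adgrl3 3.17 (1.45 to 8.65). The 60 cells of mouse 32 with the authors' dominant clonotype number but neither family chain were not taken out of its other CD4 cells. Their part in the CD4 ratios of mouse 32 was not tested. In mouse 30 the ratios among CD4 cells were 28.6 (5.06 to 1139) for Adgrl3, 12.5 (5.68 to 34.2) for Sema6d and 17.6 (8.50 to 44.0) for Cntn1.

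**Figure D4:**
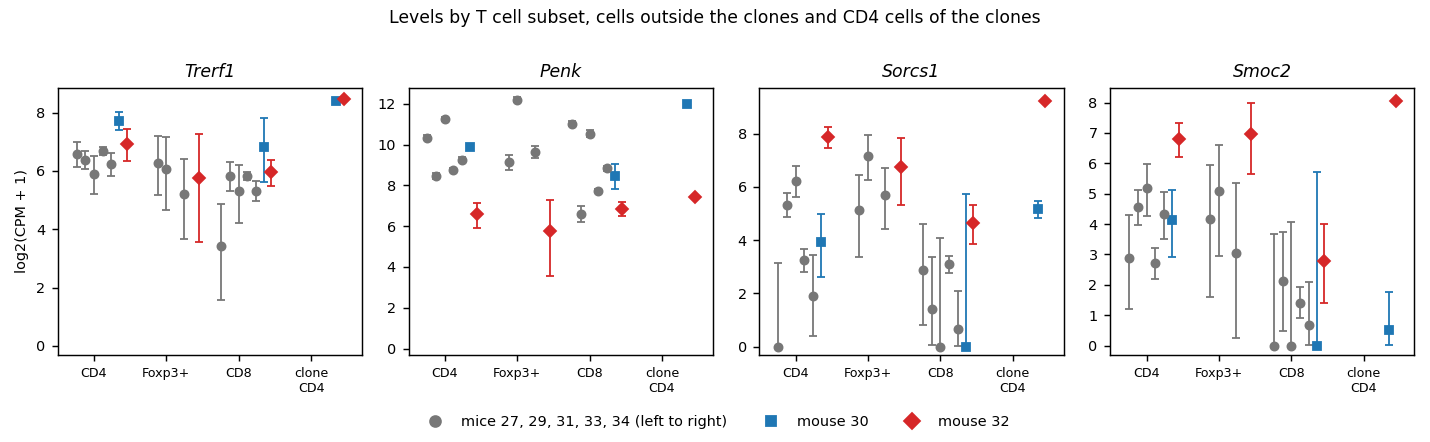
Trerf1, Penk, Sorcs1 and Smoc2 as log2(CPM + 1) in CD4, Foxp3-positive and CD8 T-like cells outside the clones and in CD4 cells of the 2 clones. Points are single nodules with 95% Poisson intervals, and groups of fewer than 20 cells are not drawn. Smoc2 is lower in CD8 than in CD4 cells of mice 29, 31, 33 and 34, and in mouse 27 the order is not resolved.

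Myeloid-like cells, named from macrophage and neutrophil markers, had little part in the choice, as 1307 of 1421 in mouse 32 and 992 of 1007 in mouse 30 carried no receptor call. Of 11913 genes tested there, 4.32% passed between TCR and BCR nodules, and 0 of 6 members tested did with edgeR, although 2 had an unadjusted p under 0.05 and DESeq2 called the same 2, Sorcs1 and Trerf1. Sorcs1 was 3.14 ± 0.83 higher on the log2 scale in the TCR nodules (edgeR adjusted p = 0.07) and Trerf1 1.36 ± 0.41 higher (edgeR adjusted p = 0.0934). In cells without a receptor call the difference of Sorcs1 was 1.89 ± 0.80 (edgeR adjusted p = 0.209) and that of Trerf1 1.32 ± 0.44 (edgeR adjusted p = 0.118). The other 4 were Penk (0.87 ± 0.84), Adgrl3 (0.45 ± 1.07), Dpp6 (0.13 ± 1.00) and Sema6d (-1.53 ± 1.01), with edgeR adjusted p values of 0.422 to 0.958. In macrophage-like cells Trerf1 was at 27.1, 18.3, 24.8, 34.7 and 44.7 CPM in mice 27, 29, 31, 33 and 34, whereas mouse 32 had 49.9 CPM and mouse 30 had 205 CPM. The 203 macrophage-like cells of mouse 30 carried 795 CPM of macrophage markers, against 4110 CPM in mouse 32 and 8154 to 21560 CPM in the BCR nodules, so their name is the least certain. They held 83.9 CPM of T markers and 22.2 CPM of Trbv1, and the 172 of them without a T marker UMI still had 190 CPM of Trerf1. Sorcs1 stood at 26.2 CPM in the neutrophil-like cells of mouse 32 and 25.7 CPM in its macrophage-like cells, and those without a T marker UMI held 3.57 and 20.3 CPM. Without the neutrophil-like cells that carried a chain of the clone, 8.11 CPM was left.

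**Figure D5:**
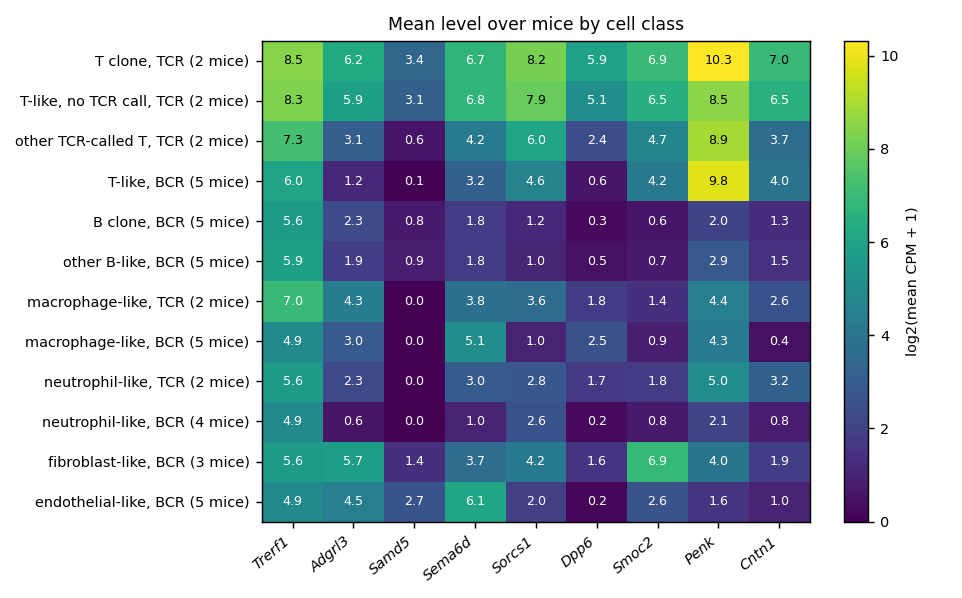
Mean level over mice, as log2(mean CPM + 1), of the 9 genes in cell classes of TCR and BCR nodules, with the number of mice per class. Adgrl3 and Smoc2 are also high in fibroblast-like cells and Sema6d in endothelial-like cells.

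The expanded B clones of the BCR nodules gave a further reference, with T-like cells of the same mice as the other side, which had been the low side of the choice. With mouse as a block, edgeR called 28.1% of 12456 genes. Of 7 members tested 5 were lower in the B clones in edgeR: Penk by 8.10 ± 1.05 on the log2 scale (adjusted p = 0.00223), Smoc2 by 5.56 ± 0.64 (0.00136), Sorcs1 by 4.56 ± 1.10 (0.0232), Cntn1 by 3.72 ± 0.90 (0.0236) and Sema6d by 2.10 ± 0.52 (0.0237). Without the block, Sema6d (edgeR adjusted p = 0.15) and Cntn1 (0.0584) no longer passed. Sorcs1 no longer passed in edgeR without mouse 27, 29 or 34 (adjusted p = 0.0535, 0.0709 and 0.0744), Cntn1 without mouse 29 or 33 (0.0625 and 0.0598) and Sema6d without mouse 27, 29, 33 or 34 (0.0513 to 0.0691). Trerf1 stood at 45.1, 28.2, 71.8, 47.7 and 51.4 CPM in the B clones of mice 27, 29, 31, 33 and 34, close to the T-like cells of the same nodules (difference -0.42 ± 0.24, edgeR adjusted p = 0.223). Adgrl3 was the reverse in sign, with 11.1 CPM in the B clone of mouse 33 against 1.01 CPM in its T-like cells (difference over the 5 mice 1.56 ± 0.71, edgeR adjusted p = 0.14). None of the 9 genes reached in a B clone the level of the T clone in which it was high.

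Relatives and partners of the 9 genes were taken from lists of their families and known partners. Of 63 genes in 8 lists, 62 were in the files, 32 could be tested in T-like cells of TCR against BCR nodules and 20 in clone against other TCR-called cells, and 0 passed in either with edgeR. Of these, 3 and 4 had an unadjusted p under 0.05, and DESeq2 called 1 in each comparison. Their median log2 differences were -0.01 and -0.12, against 0.03 and 0.02 over all genes tested. Only 15 reached 20 CPM in the T-like cells of any nodule. The other MiDAC genes, Elmsan1, Dnttip1, Hdac1 and Hdac2, were among them, at 26.1 to 117 CPM, and the largest of their differences between TCR and BCR nodules was -0.64 ± 0.34 for Hdac1. Dpp4, the peptidase of activated T cells, stood at 4.98 and 9.51 CPM in mice 32 and 30 against 23.3 to 89.8 CPM in the BCR nodules (-3.12 ± 0.68, edgeR adjusted p = 0.333). Only in mouse 32 was this opposite to Dpp6, which was not raised in mouse 30. Pcsk1, a protease that cleaves proenkephalin, had 44.3 CPM in the mouse 30 clone against 5.09 CPM in other TCR-called T-like cells, but 0.577 CPM in the mouse 32 clone (clone against other cells 3.10 ± 0.59, edgeR adjusted p = 0.228). Tenm4, a teneurin of the family that binds latrophilins, was at 0.0 to 7.45 CPM in T-like cells of the BCR nodules, 25.6 CPM in mouse 30 and 8.85 CPM in mouse 32 (2.40 ± 0.86, edgeR adjusted p = 0.492). The remaining genes at 20 CPM or more were Sema6a, Sorl1, Dpp8, Kcnip1, Sparc, Sparcl1, Spock2 and Pomc, at up to 96.0 CPM. In the B clones against T-like cells, 3 of 23 tested relatives were higher (Adgrl2, Tenm2 and Sorcs2) and 4 lower (Dpp4, Kcnip1, Kcnip3 and Spock2). Of all 12456 genes tested there 28.1% passed, so these calls are near the general share. Between TCR and BCR nodules in myeloid-like cells, Plxna1 and Plxna2 were lower among 28 tested, where 4.32% of all 11913 genes passed.

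The genes whose levels over the 43 sums were most like each member were Tnfsf11 for Penk (r = 0.94), Trdv1 for Cntn1 (0.89), 1700054O05Rik for Sorcs1 (0.87), Ccn4 for Smoc2 (0.87), Gm15558 for Dpp6 (0.85), Zup1 for Trerf1 (0.83), Shc3 for Samd5 (0.77), Ifit3b for Sema6d (0.76) and Tmem45a for Adgrl3 (0.71), out of 15615 genes. The next most alike were Dthd1 and Podnl1 for Penk, Apol7b and Gm4858 for Cntn1, Celf3 and Gm15764 for Sorcs1, Sorcs1 and Dzip1 for Smoc2, Gm6329 and Tac1 for Dpp6, Gm11454 and Trim14 for Trerf1, Efnb2 and Amigo1 for Samd5, Ifih1 and Ifit1 for Sema6d, and C1qtnf6 and Il17rd for Adgrl3.

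The 9 genes are not neighbors in the genome, but 8 of them are long. In GRCm38.p6 they span 910 kb (Dpp6, chr5:26817357-27727500), 809 kb (Adgrl3, chr5:81019085-81827825), 578 kb (Sema6d, chr2:124089943-124667789), 536 kb (Sorcs1, chr19:50143295-50679129), 413 kb (Samd5, chr10:9262461-9675926), 291 kb (Cntn1, chr15:92051152-92341967), 221 kb (Trerf1, chr17:47140942-47362325) and 125 kb (Smoc2, chr17:14279490-14404790). Penk (chr4:4133536-4138815) spans 5.28 kb. Of 21900 protein-coding genes in RefSeq, 11.1% span more than 100 kb and the median is 17.1 kb. Malat1, a transcript retained in the nucleus, made up 33100 CPM of the clone of mouse 30 and 26150 CPM of its other T-like cells, 11090 and 12460 CPM in mouse 32, and 5174 to 31420 CPM of T-like cells in the BCR nodules. The part of nuclear RNA in the levels of the long genes was not tested.

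The promoters of Trerf1 and Adgrl3, the 2 members highest in both clones relative to T-like cells of the BCR nodules with more than 50 CPM in each, are shown from RefSeq (GRCm38.p6), from 250 bases before to 50 bases after the start. Both are on the plus strand. Of the 9 genes, 7 had a promoter listed.
Trerf1, chr17:47229980-47230279: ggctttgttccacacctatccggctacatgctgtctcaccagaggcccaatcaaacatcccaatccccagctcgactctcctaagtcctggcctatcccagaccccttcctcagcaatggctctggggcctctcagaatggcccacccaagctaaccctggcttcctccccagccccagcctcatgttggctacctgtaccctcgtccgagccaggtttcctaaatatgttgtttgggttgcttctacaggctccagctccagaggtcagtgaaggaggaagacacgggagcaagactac
Adgrl3, chr5:81020321-81020620: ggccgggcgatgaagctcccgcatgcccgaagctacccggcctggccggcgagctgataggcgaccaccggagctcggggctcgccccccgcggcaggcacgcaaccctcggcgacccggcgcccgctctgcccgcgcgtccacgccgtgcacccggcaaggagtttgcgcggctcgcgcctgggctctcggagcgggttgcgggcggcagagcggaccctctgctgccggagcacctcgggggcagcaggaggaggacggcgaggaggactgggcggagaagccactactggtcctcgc
They differed in base composition, with 56.7% G and C and 5 CG pairs for Trerf1 and 75.3% and 40 for Adgrl3, whereas the median of 32851 promoters was 52.7% and 7. Neither window holds the AP-1 motif TGANTCA, present in 7.81% of all promoters on either strand. Also missing from both were the NFAT motif GGAAAA (in 23.4% of promoters), the GATA motif AGATAA (11.2%) and the RUNX motif TGTGGT (16.8%). The listed Trerf1 start lies within the span of the gene given above. Another 2 Adgrl3 starts are listed, and 1 of them holds TGTGGT.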

How the data were processed

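Raw UMI counts per gene and cell were used as deposited by the authors, who had counted droplet libraries against a build named GRCm38 and mm10 per the labels. The aligner is not given in the sources used here. The deposited contig tables hold UMI counts per assembled receptor contig, made by the authors with SeekSoulTools. The labels name a 5′ kit for the V(D)J libraries and the methods of the study a 3′ kit for RNA, and the kit of the RNA libraries was not settled here.

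Cells with at least 201 UMIs, at least 101 genes and at most 10% mitochondrial UMIs were kept, and a minimum of 500 UMIs was already present in the deposited cells. They were clustered with scanpy 1.11.5 and leidenalg 0.10.2 into 33 clusters, which were named from fixed markers by a rule set after the clusters had been seen. Of these, 3 stayed unnamed. No doublet caller was run. T-like cells were grouped as CD4, CD8 or Foxp3-positive by their own UMIs. The clone of a nodule held all cells with its most frequent β chain, or with the α chain most frequent among those cells. The members and all gene lists were chosen with earlier results of these data known. Every list gene was counted, and a relative was named where called or at 20 CPM or more in T-like cells of a nodule.

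UMIs were summed per mouse and class and tested with edgeR 4.0.16 (R 4.3.3, quasi-likelihood, TMM factors, genes kept by filterByExpr), with Benjamini-Hochberg adjustment over all genes tested and a threshold of 0.05. Standard errors were taken as the size of the log2 difference divided by the square root of F. Where both sides came from the same mice (clone against other cells, B clone against T-like cells, subsets), the mouse was a block, since the pairing is given by the animal. The steps were checked on simulated counts. Intervals of CPM are exact Poisson and those of ratios exact binomial, at 95%, and cover counting error only, as does the floor of 3 UMIs. With 1 library per mouse, 5 and 2 mice set the precision of every comparison. Alternatives were DESeq2 1.42.0, other scaling factors, no filter on low counts, classes from marker UMIs alone, the authors' clonotype number, the fit without the block, and leaving out each mouse. The subset comparisons, the CD4-only and uncalled-cell ratios and the macrophage-only, no-receptor-call and T-like-only settings were added after seeing the data.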

Additional observations from a re-analysis of the deposited data

Results flagged for a closer look

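In groups of 5 nodules, a gene was listed here where 1 nodule lay apart from the others by Dixon's criterion. Of 33 groups of values 8 were listed. The criterion lists about 1 in 20 groups of normally distributed values, which CPM from few UMIs need not be. No excess over chance is therefore read from the 8. In the B clones, Samd5 stood at 3.09 CPM in mouse 31, with 0.230 CPM as the next value, and Sema6d at 8.30 CPM in the same mouse, with 1.95 CPM next. Sorcs1 had 4.46 CPM in the B clone of mouse 33 (next 1.03 CPM), Smoc2 1.80 CPM in that of mouse 29 (next 0.385 CPM) and Penk 8.56 CPM in that of mouse 34 (next 2.53 CPM). All 5 levels are below those of the T clones in which the gene was high. Dpp6 reached 14.7 CPM (10 UMIs in 4 cells) in the 104 macrophage-like cells of mouse 34 outside its B clone, with 4.12 CPM next. Cntn1 stood at 40.5 CPM in the T-like cells of mouse 29 (next 11.6 CPM) and at 17.0 CPM in its CD8 cells (next 2.30 CPM). The T-like cells of mouse 29 carried fewer T marker UMIs, 914 CPM, than those of the other 6 nodules, and 31420 CPM of Malat1.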

How the results depend on the processing

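Counts of genes called moved with the settings, by more than 1.5 times in 43 of 75 alternatives. For T-like cells of TCR against BCR nodules (3 genes), DESeq2 called 234, no filter on low counts gave 29, marker UMI classes gave 0 (1161 with an unadjusted p under 0.05), and leaving out single mice gave 0 to 29. For clone against other TCR-called cells (4 genes), the values were 183, 644 and 48, the authors' clonotype number gave 0 (901 unadjusted), and without the replicate block 0 passed (430 unadjusted). For non-clonal T cells (0 genes), DESeq2 called 4, no filter gave 1, and leaving out single mice 0 to 5. For myeloid-like cells (515 genes), DESeq2 called 1504, no filter gave 846, macrophage-like cells alone 0 (1593 unadjusted), and single mice left out 16 to 1417, with the lowest counts without mouse 32 (16) or 30 (22). For B clone against T-like cells (3497 genes) leaving out mice gave 2280 to 3039. For Foxp3-positive cells (44 genes), DESeq2 called 19, no filter gave 75, no replicate block 2, and mice left out 14 to 87. For CD8 against CD4 cells (124 genes), no filter gave 656, marker UMI classes 58, no replicate block 5, and mice left out 51 to 265.

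Of 276 log2 differences of members under the alternatives, 239 kept their sign and their side of the threshold and 13 changed sign. In non-clonal T cells these were Smoc2, -0.54 to 1.18 with mice left out, and Cntn1, 0.16 with marker UMI classes and -1.40 to 0.42 with mice left out. In myeloid-like cells these were Adgrl3 (-0.052 with marker UMI classes, -0.26 in cells without a T marker UMI, -0.70 to 1.30 with mice left out), Dpp6 (-0.0042 in DESeq2, -0.68 in cells without a receptor call, -0.99 to 0.74 with mice left out) and Penk (-1.75 to 1.76 with mice left out). Trerf1 and Sorcs1 in myeloid-like cells passed in DESeq2 (adjusted p = 0.0463 and 0.0258), and Trerf1 also with marker UMI classes (edgeR adjusted p = 0.0288). In B clone against T-like cells, Sema6d, Sorcs1 and Cntn1 no longer passed without some single mice (edgeR adjusted p = 0.0513 to 0.0744). The call of Penk in Foxp3-positive cells was lost without the replicate block (edgeR adjusted p = 0.864) and without mouse 31 (0.79) or 34 (0.171). Leaving out a mouse of the clone comparison leaves 1 mouse, so no count was made. Of 100 ratios of clone to other cells under the alternatives, 30 left the counting interval of the reported ratio. With uncalled T-like cells as the other side they included Adgrl3 (1.29 in mouse 30, 1.33 in mouse 32), Samd5 (0.994 in mouse 30), Sema6d (0.953 and 0.913), Cntn1 (1.41 in mouse 30), Sorcs1 (1.24), Smoc2 (1.44) and Dpp6 (1.79, all 3 in mouse 32). The clone side of these ratios held all clone cells, T-like or not. By the authors' clonotype number the ratio was 15.4 for Adgrl3, 34.5 for Dpp6 and 11.8 for Smoc2 in mouse 32. Of 18 mean shares of T-like cells with a UMI 6 moved on thinning. The causes were not tested. Only 2 TCR nodules were available to every such comparison, and Samd5, with 710 UMIs in all, was limited by counting.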

Other observations

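Cycling clone cells, with at least 2 UMIs of 10 cell cycle genes, differed from clone cells without such UMIs in most members. In mouse 32, the 956 cycling cells held 336 CPM of Sorcs1 against 699 CPM in 2672 other cells, 204 against 362 CPM of Trerf1, 38.3 against 90.6 CPM of Adgrl3, 155 against 308 CPM of Smoc2 and 85.1 against 142 CPM of Dpp6. In mouse 30, Adgrl3 was at 36.0 CPM in 122 cycling cells and 94.7 CPM in 1748 others, and Trerf1 at 319 and 427 CPM. Penk went the other way in mouse 30 and was at 133 and 121 CPM in mouse 32. Sema6d was higher in the cycling cells of mouse 30 (228 against 165 CPM) and lower in those of mouse 32 (25.9 against 44.2 CPM), and Cntn1 was at 285 against 239 CPM in mouse 30. Cycling cells of mouse 32 had a median of 7054 UMIs and the others 3318, and no test was made, since each clone comes from 1 library. Both groups were drawn from all clone cells, T-like or not. Erythroid markers summed to 1607 CPM over all clone cells of mouse 32 and 200.5 CPM over its T-like clone cells. The part of the cells that were not T-like in these differences was not tested.

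Trerf1 was also found in cells that could not be named. The 2636 unnamed cells of mouse 31 held 193 CPM and the 1214 of mouse 34 held 99.9 CPM, above the T-like cells and the B clones of the same nodules. These unnamed cells had few UMIs and B cell markers. The leading genes of their main clusters included Igkv3-10 in mouse 31 and Igkv1-135 in mouse 34, which the B clones of these nodules also used.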
